A study of Homo sapiens with 9 samples.

Results

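FOS, FOSB, FOSL1, FOSL2, JUN, JUNB, JUND and ATF3 encode subunits of the AP-1 transcription factor. They were taken as the rows of the count table whose Ensembl gene identifiers carry these symbols, which are 8 of 60708 gene rows, and all 8 passed the filter on low counts that left 20812 genes for testing. The cells were MDA-MB-231, an established line of triple-negative breast cancer with a mesenchymal, basal-like character. Poly(A) RNA was sequenced from 3 groups of 3 libraries. Recovery cells had received 10 nM Pladienolide B (PdB), which blocks splicing by binding SF3B in the spliceosome, for 16 h and were collected after 24 h of recovery. PdB cells were collected at the end of the same 16 h, and DMSO cells received the solvent. The labels number the libraries of each group 1 to 3 without saying whether they came from separate cultures, so the p-values below measure the spread between these libraries, which may be technical. A single DMSO group served both times and its time is not labelled, so recovery and a longer time in culture cannot be told apart in the comparison of recovery with DMSO.

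AP-1 proteins bind DNA as dimers through a basic leucine zipper (bZIP). JUN proteins pair with one another or with FOS proteins, FOS proteins need a JUN partner, and ATF3 pairs with JUN proteins and other bZIP factors. Several of the genes, such as FOS, are best known as immediate early genes, which growth factors, MAP kinases and stress switch on within minutes. FOSL1 is known as the prominent FOS member of mesenchymal breast cancer lines, where AP-1 drives invasion genes.

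At the end of PdB treatment, 6 of the 8 genes were higher than in DMSO (FOS, FOSB, FOSL1, FOSL2, JUNB and ATF3), 1 was lower (JUND) and JUN did not pass the test. These counts stand beside 70.1% of all genes tested that passed in this comparison, 32.0% of them higher and 38.2% lower. After recovery, FOS, FOSB, JUNB and ATF3 were higher than in DMSO and FOSL1 and JUN were lower, 6 of 8 called, beside 61.2% of all genes, 30.7% higher and 30.5% lower. Set against PdB, recovery cells had higher ATF3 and JUNB and lower FOSL1, FOSL2 and JUN, 5 of 8 called, beside 66.1% of all genes, 34.6% higher and 31.5% lower. ATF3 had the largest rise among the 8 genes in each comparison. The first 2 comparisons use the same 3 DMSO libraries, so their values are given side by side. All adjusted p-values are from the quasi-likelihood test of edgeR over all genes tested, two-sided, with the Benjamini-Hochberg adjustment and a threshold of 0.05. Changes are log2 fold changes ± standard error with 3 libraries in each group. This standard error was derived from the F statistic of the test, in the fit to all 9 libraries.

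Library totals lay between 56389689 and 67047079 assigned reads, a depth at which even FOSB, the lowest of the 8 genes, had 80 reads or more in each library. The share of reads from mitochondrial genes was 8.02 to 8.18% in recovery, 6.71 to 8.43% in PdB and 4.67 to 5.59% in DMSO libraries, so it moved with treatment, and its part in the results was not tested. The summed level of 10 mesenchymal, basal-like markers was 5109.6 to 5259 CPM in recovery, 8411 to 8755 CPM in PdB and 9576 to 9773 CPM in DMSO libraries (CPM, read counts scaled by TMM to library size). The estrogen receptor gene ESR1 had no read in any library, whereas the sum of the 10 luminal markers was 1309 to 1496 CPM in recovery, 1004 to 1169 CPM in PdB and 1173 to 1376 CPM in DMSO libraries. Of the 8 leukocyte markers NKG7 was at 0 and the sum stayed at or below 3.13 CPM in each library. The 8 fibroblast markers, none of them at 0 throughout, summed to 31.0 to 34.7 CPM in recovery, 3.37 to 6.55 CPM in PdB and 14.0 to 17.8 CPM in DMSO libraries, and their part in the results was not tested. In bulk RNA, fewer cells of a kind and less RNA per cell cannot be told apart.

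FOS lies on chromosome 14 (75278774 to 75282230, plus strand), FOSB on chromosome 19 (45467995 to 45475179, plus), FOSL1 on chromosome 11 (65892049 to 65900573, minus) and FOSL2 on chromosome 2 (28392448 to 28417312, plus) in GRCh38 with GENCODE 29. The longest transcript of each of these 4 genes has 3 introns. JUN (chromosome 1, 58780788 to 58784327, minus), JUNB (chromosome 19, 12791496 to 12793315, plus) and JUND (chromosome 19, 18279760 to 18281622, minus) have none. ATF3 (chromosome 1, 212565334 to 212620777, plus) has 11 annotated transcripts, the longest with 1 intron, and the count table joins them all. JUNB shares 259 bp of exon with HOOK2 on the opposite strand. Whether counting used the strand is not given in the sources used here, so reads of both genes cannot be told apart there. HOOK2 had 762, 866 and 961 reads in recovery, 276, 253 and 168 in PdB and 828, 661 and 817 in DMSO libraries, against at least 1073 for JUNB. FOSB and FOSL2 overlap other genes only outside exons.

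The promoters of FOS, FOSB and JUNB are shown as those of FOS and JUN genes that were higher than DMSO at both times, as was ATF3, whose 2 windows are described but not printed. Those of FOSL2 and JUN are shown because FOSL2 was higher only at the end of treatment in these tests and JUN was lower after recovery. Each is the RefSeq window of GRCh38.p14 from 250 bases before to 50 bases after the annotated start, written 5′ to 3′ on the strand of the gene. The windows are chr14:75278578-75278877 (FOS, plus), chr19:45467746-45468045 (FOSB, plus), chr19:12791236-12791535 (JUNB, plus), chr2:28392608-28392907 (FOSL2, plus) and chr1:58783998-58784297 (JUN, minus). Capitals mark matches to AP-1 and CREB or ATF core motifs on either strand.
FOS: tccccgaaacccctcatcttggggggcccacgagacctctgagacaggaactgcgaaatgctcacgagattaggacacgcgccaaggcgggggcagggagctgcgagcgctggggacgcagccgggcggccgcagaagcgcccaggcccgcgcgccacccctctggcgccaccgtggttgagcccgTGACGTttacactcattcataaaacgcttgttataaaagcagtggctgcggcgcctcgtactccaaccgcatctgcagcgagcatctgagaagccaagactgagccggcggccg
FOSB: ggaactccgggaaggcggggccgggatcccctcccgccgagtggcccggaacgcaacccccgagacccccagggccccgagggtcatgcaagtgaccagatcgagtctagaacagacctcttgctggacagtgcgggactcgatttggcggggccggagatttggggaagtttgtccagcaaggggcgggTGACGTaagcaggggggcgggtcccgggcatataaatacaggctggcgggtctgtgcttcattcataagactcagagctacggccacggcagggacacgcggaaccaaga
JUNB: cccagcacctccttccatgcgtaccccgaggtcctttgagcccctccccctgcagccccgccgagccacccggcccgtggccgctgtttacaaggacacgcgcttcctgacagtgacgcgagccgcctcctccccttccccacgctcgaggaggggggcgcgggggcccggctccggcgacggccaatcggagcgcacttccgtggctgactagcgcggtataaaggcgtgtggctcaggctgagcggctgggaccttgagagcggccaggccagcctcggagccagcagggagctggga
FOSL2: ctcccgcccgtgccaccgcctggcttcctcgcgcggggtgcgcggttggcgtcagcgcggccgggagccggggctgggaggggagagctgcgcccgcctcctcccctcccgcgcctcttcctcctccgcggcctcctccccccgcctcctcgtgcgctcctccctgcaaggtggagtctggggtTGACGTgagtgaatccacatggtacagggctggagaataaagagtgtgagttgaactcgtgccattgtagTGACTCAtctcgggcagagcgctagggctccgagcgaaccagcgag
JUN: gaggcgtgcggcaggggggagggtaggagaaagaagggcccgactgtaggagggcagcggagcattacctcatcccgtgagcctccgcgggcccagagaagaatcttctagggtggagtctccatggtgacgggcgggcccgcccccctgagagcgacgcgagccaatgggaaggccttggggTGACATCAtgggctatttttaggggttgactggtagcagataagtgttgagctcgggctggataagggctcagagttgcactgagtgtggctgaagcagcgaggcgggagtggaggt

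The motifs searched were TGANTCA (the AP-1 element), TGACATCA (its variant with 1 more base, known from the JUN promoter), TGACGT (the CRE core) and TGACGTCA (the full CRE, which contains the core). Among 35116 RefSeq windows of the same length, 7.71% held TGANTCA, 2.61% TGACATCA, 7.98% TGACGT and 1.85% TGACGTCA. FOS held the CRE core at -64 to -59 from its start, FOSB at -60 to -55 and FOSL2 at -66 to -61, and FOSL2 also held TGACTCA at 4 to 10 after its start. JUN held TGACATCA at -67 to -60. The JUNB window held none of these letters. Of the windows not printed, that of JUND held the full CRE at -200 to -193 and a core at -87 to -82, and of the 2 windows of ATF3 the upstream one held TGACATCA at -123 to -116. A window was found for 7 of the 8 genes, and FOSL1 had no entry. A match is a run of letters, not a bound site.

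Scaled by length, FOSL1 was the most abundant of the 8 genes in each group, at 317 CPM per kb of exon in recovery, 1071 in PdB and 385 in DMSO. FOSL2 (40.7 CPM per kb) and JUN (38.4) followed in recovery, FOSL2 (108) and JUN (50.9) in PdB, and JUN (48.3) before FOSL2 (42.2) in DMSO. JUND had 26.2, 24.2 and 28.0 CPM per kb in recovery, PdB and DMSO, and JUNB had 26.3 in recovery, 22.4 in PdB and 11.0 in DMSO. Below them came ATF3, with 11.7 CPM per kb in recovery, 6.83 in PdB and 1.57 in DMSO. FOS, with 2.83 CPM per kb in recovery, 2.68 in PdB and 1.11 in DMSO, and FOSB, with 1.52 in recovery, 1.11 in PdB and 0.306 in DMSO, were the lowest in each group. Neighbours in this order did not overlap over their 3 libraries, except JUNB and JUND in recovery. With the longest transcript as the length, FOSL2 (42.3 to 46.6 CPM per kb) and JUN (46.5 to 50.7) overlapped in DMSO as well. By unscaled CPM, 99.7% of genes tested had a lower mean than FOSL1, 98.7% than FOSL2 and 94.1% than JUN, but 48.0% than FOS and 45.2% than FOSB.

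**Figure D1:**
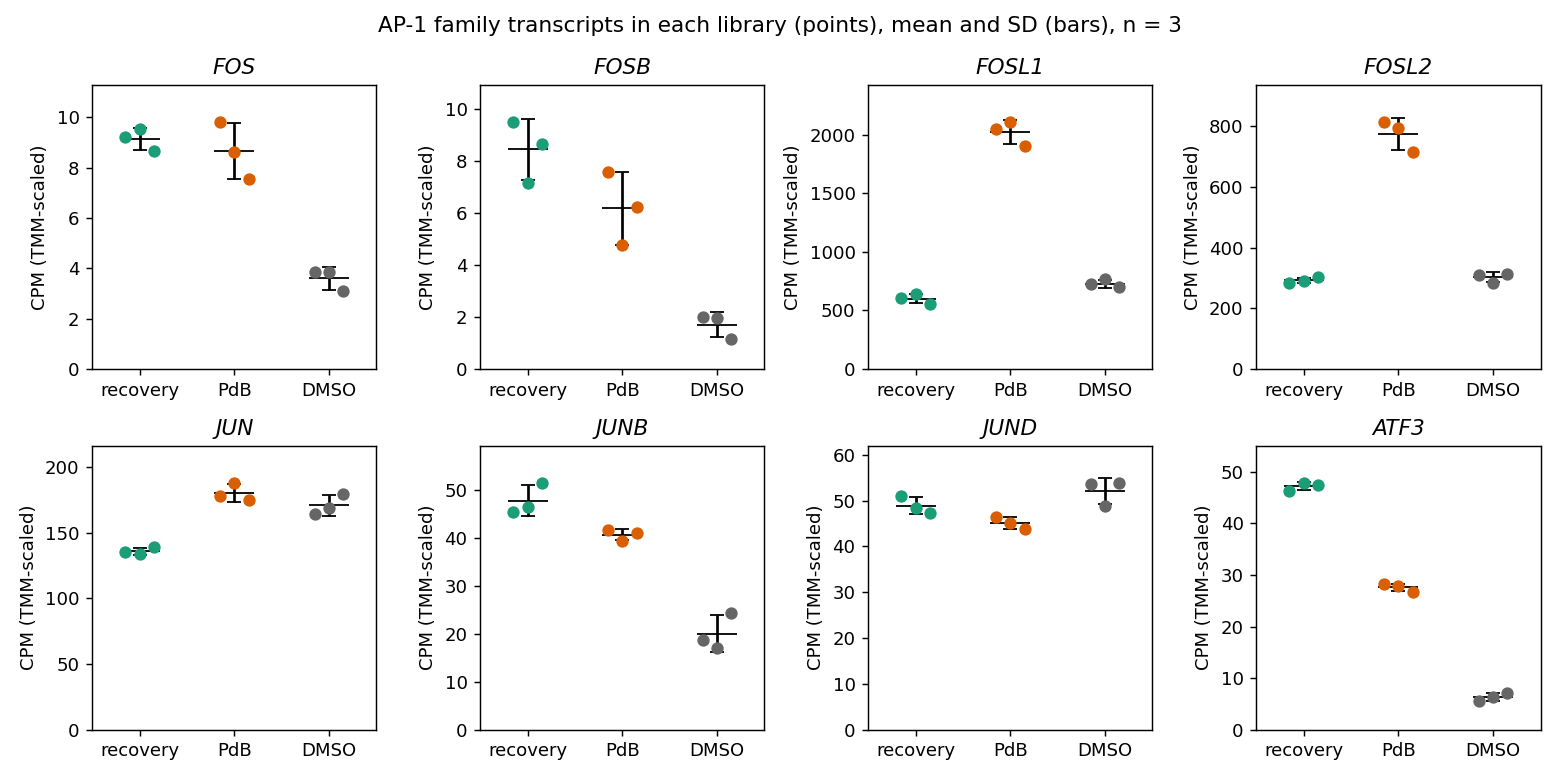
TMM-scaled CPM (linear axis from 0) of the 8 AP-1 genes in each library (points), with the mean and SD of 3 libraries (bars), for recovery, PdB and DMSO. FOSL1 and FOSL2 stand highest in PdB libraries, and FOS, FOSB, JUNB and ATF3 lie above DMSO in both PdB and recovery libraries.

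FOSL1 (FRA-1, a FOS protein without the transactivation domain of FOS) had 602, 636 and 558 CPM in recovery libraries, 2051, 2107 and 1903 CPM in PdB libraries and 721, 764 and 697 CPM in DMSO libraries. All 3 PdB libraries stood far above the rest, the recovery libraries were the lowest, and no groups overlapped. FOSL1 averaged 2020.4 ± 106 CPM in PdB and 727 ± 34 CPM in DMSO (SD, n = 3 each), a rise of 1.47 ± 0.054 (2.78-fold, adjusted p = 3e-14). After recovery it averaged 599 ± 39 CPM, 0.28 on the log2 scale below DMSO (-0.28 ± 0.053, adjusted p = 0.00015) and 3.38-fold below PdB (-1.76 ± 0.054, adjusted p = 6.9e-15). In the comparison of recovery with PdB, 4.93% of all genes had a lower log2 change than FOSL1.

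FOSL2 (FRA-2, its closest relative in the family) had 284, 289 and 302 CPM in recovery, 814, 795 and 716 CPM in PdB and 310.1, 284 and 313 CPM in DMSO libraries. Here too the PdB libraries stood apart, whereas recovery and DMSO libraries overlapped. The rise in PdB was 1.36 ± 0.055 (2.56-fold, adjusted p = 1.1e-13), with means of 775 ± 52 CPM in PdB and 302 ± 16 CPM in DMSO (SD, n = 3 each). Recovery cells, with 291 ± 9.1 CPM, had 2.66-fold less than PdB cells (-1.41 ± 0.055, adjusted p = 1e-13). Their difference from DMSO did not pass the test (-0.052 ± 0.054, adjusted p = 0.42), and its sign turned under upper-quartile scaling (0.024) and under library totals (0.019).

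FOS, the founding member and a classic marker of acute stimulation, was low in each group, with 9.22, 9.54 and 8.68 CPM in recovery, 9.82, 8.63 and 7.57 CPM in PdB and 3.85, 3.85 and 3.09 CPM in DMSO libraries. Recovery and PdB libraries overlapped each other, and all 6 lay above the 3 DMSO libraries. The increase over DMSO was 2.41-fold in PdB (1.27 ± 0.14, adjusted p = 1.9e-07) and 2.54-fold in recovery (1.35 ± 0.14, adjusted p = 1.2e-07). Means were 9.15 ± 0.43 CPM in recovery, 8.68 ± 1.1 CPM in PdB and 3.60 ± 0.44 CPM in DMSO (SD, n = 3 each). Recovery against PdB did not pass (0.076 ± 0.13, adjusted p = 0.64), and with library totals in place of TMM it did (0.35, adjusted p = 0.029). Without PdB library 3 the sign of this small difference turned (-0.012, adjusted p = 0.95).

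FOSB, another strong transactivator of the group, had 9.50, 7.16 and 8.67 CPM in recovery, 7.56, 4.76 and 6.23 CPM in PdB and 1.98, 1.97 and 1.16 CPM in DMSO libraries. Each DMSO library was lower than every library of the other groups, and the recovery and PdB ranges overlapped between 7.16 and 7.56 CPM. The gene rose 3.64-fold in PdB (1.86 ± 0.22, adjusted p = 3.4e-07) and 4.97-fold in recovery (2.31 ± 0.22, adjusted p = 2.7e-08) over DMSO. Recovery exceeded PdB by 0.45 ± 0.2 without passing (adjusted p = 0.055). That call was at the threshold: it passed without PdB library 1 (0.62, adjusted p = 0.016), without recovery library 2 (0.56, adjusted p = 0.039) or without DMSO library 3 (0.46, adjusted p = 0.026).

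JUN, the main partner of FOS proteins, had 135, 134 and 139 CPM in recovery, 178, 188 and 175 CPM in PdB and 164, 169 and 179.6 CPM in DMSO libraries. PdB and DMSO libraries overlapped, and the 3 recovery libraries lay below both. JUN fell by 0.33 in recovery against DMSO (-0.33 ± 0.049, adjusted p = 1.1e-05) and by 0.40 against PdB (-0.40 ± 0.049, adjusted p = 7.7e-07), to 136 ± 2.4 CPM, against 180.0 ± 6.6 CPM in PdB and 171 ± 7.8 CPM in DMSO (SD, n = 3 each). In PdB the change was 0.073 ± 0.049 (adjusted p = 0.19). Its direction depended on the scaling, since JUN rose under upper-quartile scaling (0.22, adjusted p = 0.00034) and fell under library totals (-0.12, adjusted p = 0.028). Under TMM 55.5% of all genes had a lower change than JUN in that comparison. Over all genes tested the median there moved with the scaling as well, to -0.11 (TMM), 0.039 (upper quartile) and -0.31 (totals).

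JUNB, known for weaker transactivation than JUN and for restraining it in some settings, had 45.4, 46.6 and 51.6 CPM in recovery, 41.8, 39.4 and 41.1 CPM in PdB and 18.8, 17.0 and 24.4 CPM in DMSO libraries. The DMSO libraries were the lowest and the groups did not overlap. JUNB was 2.03-fold higher in PdB (1.02 ± 0.1, adjusted p = 4.6e-08) and 2.39-fold higher in recovery (1.25 ± 0.1, adjusted p = 4.2e-09) than in DMSO. Recovery exceeded PdB by 0.23 ± 0.099 (adjusted p = 0.048), a call that 10 of 18 alternatives ended. Among them were the fits without PdB library 1, 2 or 3 (adjusted p = 0.06, 0.11 and 0.052) and without recovery library 2 or 3 (adjusted p = 0.062 and 0.17).

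JUND, which is broadly expressed in resting cells, had 51.0, 48.3 and 47.4 CPM in recovery, 46.5, 45.1 and 43.7 CPM in PdB and 53.7, 48.8 and 53.9 CPM in DMSO libraries. PdB libraries were the lowest without overlapping either other group, and recovery and DMSO libraries overlapped. JUND was lower in PdB than in DMSO by a small step (-0.21 ± 0.063, adjusted p = 0.0062), and this call was lost with DESeq2 size factors in edgeR (-0.11, adjusted p = 0.12), upper-quartile factors (-0.06, adjusted p = 0.4) and 3 further alternatives. Recovery differed from DMSO by -0.094 ± 0.062 (adjusted p = 0.21) and from PdB by 0.12 ± 0.063 (adjusted p = 0.11), the second of which passed with library totals (0.38, adjusted p = 2.9e-05).

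ATF3, a stress-induced bZIP factor that represses or activates with its partner, had 46.3, 47.9 and 47.5 CPM in recovery, 28.2, 27.8 and 26.8 CPM in PdB and 5.59, 6.42 and 7.05 CPM in DMSO libraries. The 3 groups were far apart, with recovery highest and DMSO lowest. Over DMSO, ATF3 rose 4.34-fold in PdB (2.12 ± 0.086, adjusted p = 1.4e-13) and 7.43-fold in recovery (2.89 ± 0.087, adjusted p = 1.7e-14). Recovery exceeded PdB by 1.71-fold (0.78 ± 0.079, adjusted p = 6.9e-08), with means of 47.3 ± 0.85 CPM in recovery and 27.6 ± 0.70 CPM in PdB (SD, n = 3 each). In recovery against DMSO, 96.8% of all genes had a lower log2 change than ATF3.

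**Figure D2:**
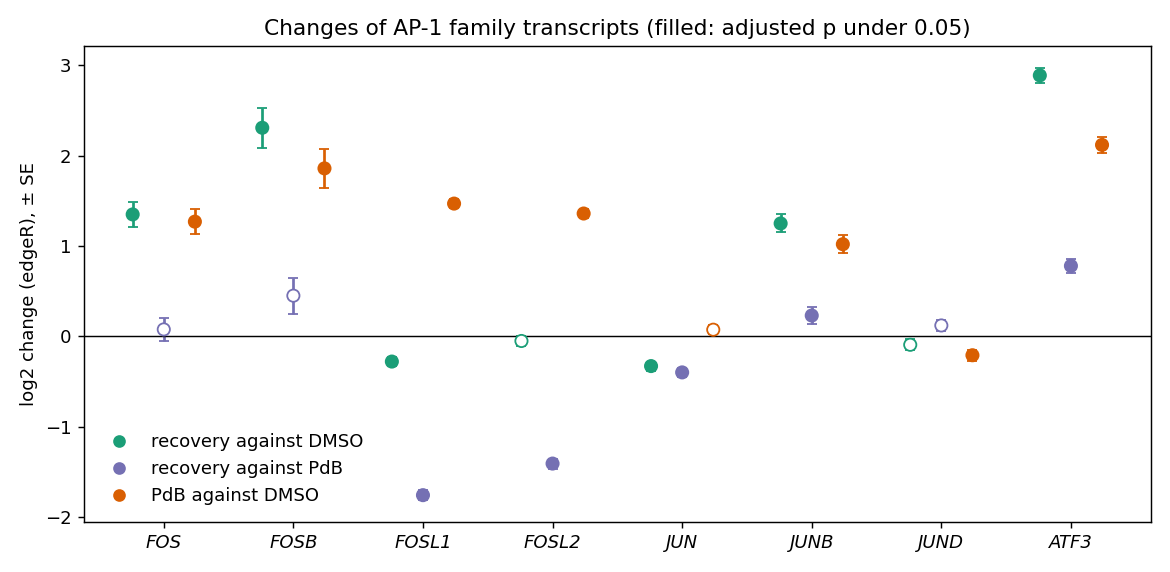
Log2 changes of the 8 AP-1 genes (y axis, edgeR) for recovery against DMSO, recovery against PdB and PdB against DMSO, with filled points past an adjusted p of 0.05. Bars are ± SE derived from the test in the fit to all 9 libraries, 3 per group. ATF3 has the highest point of each colour, and the lowest points are those of FOSL1 and FOSL2 in recovery against PdB.

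The groups did not overlap for 7 of the 8 genes in PdB against DMSO, 6 in recovery against DMSO and 6 in recovery against PdB, beside 72.5%, 70.4% and 70.5% of all genes tested. By gene structure, the 5 genes with introns (FOS, FOSB, FOSL1, FOSL2 and ATF3) each rose in PdB, beside 32.0% of all genes tested. No share was taken for genes with introns alone. Of the 3 without introns, JUNB rose, JUND fell and JUN did not pass. The calls of JUND and JUN depended on the scaling. With upper-quartile factors in edgeR, JUN rose (0.22, adjusted p = 0.00034) and JUND did not pass (-0.06, adjusted p = 0.4). The same held with DESeq2 size factors in edgeR (JUN 0.17, adjusted p = 0.0056, and JUND -0.11, adjusted p = 0.12). With library totals JUN fell (-0.12, adjusted p = 0.028). Among the 530 protein-coding genes without introns that were tested, 58.5% were higher and 17.2% lower in PdB than in DMSO, 40.8% higher and 23.8% lower in recovery than in DMSO, and 17.2% higher and 53.0% lower in recovery than in PdB.

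The make-up of the FOS and JUN sides of AP-1 was compared as shares of summed CPM per kb. In the FOS group, FOSL1 made up 87.5 ± 0.98% in recovery, 90.5 ± 0.29% in PdB and 89.8 ± 0.85% in DMSO (SD, n = 3 each). FOS itself was 0.78% in recovery, 0.226% in PdB and 0.259% in DMSO, and FOSB was 0.422% in recovery, 0.0945% in PdB and 0.071% in DMSO. For both genes the recovery share lay above PdB and DMSO in each library, while PdB and DMSO shares overlapped. In the JUN group the share of JUN was 42.3 ± 0.13% in recovery, 52.2 ± 1.3% in PdB and 55.4 ± 1.7% in DMSO. JUNB supplied 28.9 ± 1.5% in recovery, 23.0 ± 0.96% in PdB and 12.6 ± 1.7% in DMSO, and JUND supplied 28.8 ± 1.4% in recovery, 24.8 ± 0.53% in PdB and 32.1 ± 1.4% in DMSO. The 3 groups did not overlap in the share of JUN, JUNB or JUND, where the two-sided exact permutation test gave p = 0.10, the smallest it can give with 3 against 3.

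The FOS group summed to 363, 381 and 342 CPM per kb in recovery, 1205, 1231 and 1112 in PdB and 427, 446 and 414 in DMSO libraries. The JUN group summed to 90.5, 89.4 and 93.0 CPM per kb in recovery, 98.1, 98.8 and 95.5 in PdB and 85.6, 83.4 and 93.1 in DMSO libraries. FOS transcripts thus outnumbered JUN transcripts in each library, by 3.99 ± 0.30 to 1 in recovery, 12.1 ± 0.43 to 1 in PdB and 4.93 ± 0.45 to 1 in DMSO (SD, n = 3 each). The ratio was highest in all 3 PdB libraries and did not overlap between groups (exact permutation p = 0.10 for each pair). These are transcript levels, and protein was not measured in these files.

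**Figure D3:**
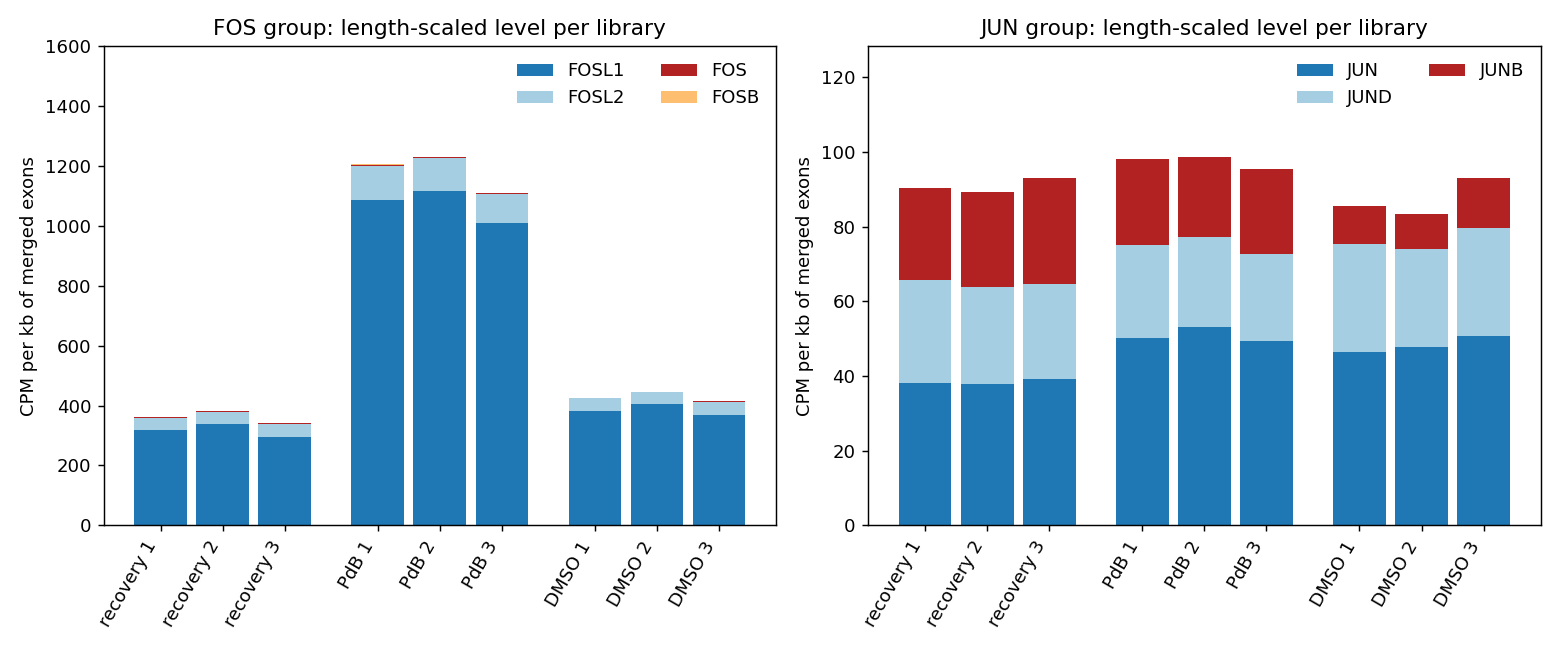
Stacked CPM per kb of merged exons (linear axes from 0) of the FOS group (left) and the JUN group (right) in each of 9 libraries. The FOS group is mostly FOSL1 and is 1112 to 1231 in PdB libraries, and in the JUN group the JUNB part is 11.2 to 14.4% in DMSO libraries and 27.6 to 30.5% in recovery libraries.

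To show which other genes followed each member, its log2 CPM over the 9 libraries, less its mean, was set against 10725 protein-coding genes with a mean of at least 5 CPM, by the root mean square difference. CLPTM1L lay nearest to JUN (0.028), with 152 ± 1.4 CPM in recovery, 200.0 ± 8.4 CPM in PdB and 185 ± 6.5 CPM in DMSO (SD, n = 3 each). For FOSL1 the nearest were ENSG00000266086, which had no symbol (0.050), and the splicing factor gene SRSF1 (0.057). SRSF1 had 264 ± 7.3, 958 ± 44 and 332 ± 9.3 CPM in recovery, PdB and DMSO, beside 242 ± 7.4, 856 ± 34 and 297 ± 9.3 CPM for ENSG00000266086. Whether ENSG00000266086 and SRSF1 share reads was not tested. SPART (0.054) was nearest to FOSL2, with 45.4, 123 and 45.8 CPM in recovery, PdB and DMSO, and TINF2, which encodes a shelterin subunit, to JUND (0.046). FOS was nearest to the readthrough locus PPAN-P2RY11 (0.10) and to NOP2 (0.11), a nucleolar RNA methyltransferase gene. Whether PPAN-P2RY11 shares reads with its parent genes was not tested. FBXO44 (0.10) was nearest to JUNB. TXK (0.13) and WNK4 (0.14), both kinase genes, were nearest to ATF3, with TXK at 16.0, 8.95 and 2.01 CPM in recovery, PdB and DMSO. FOSB had the loosest match, ZNF559-ZNF177 (0.24), also a readthrough locus.

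Upstream of AP-1, MAP kinase cascades phosphorylate JUN and, through SRF and its ETS partners, induce FOS. Of 36 genes of the MAP kinase cascades, 12 rose and 21 fell in PdB against DMSO (median log2 change -0.46, beside -0.11 over all genes). Of all genes tested, 32.0% rose and 38.2% fell there. In recovery against DMSO 9 rose and 21 fell (median -0.50, beside 0.026 over all genes, with 30.7% up and 30.5% down). In recovery against PdB 15 rose and 15 fell (median -0.07, beside 0.062 over all genes, with 34.6% up and 31.5% down). The last became 18 up and 13 down with library totals (median 0.2). MAP3K1, a kinase at the top of the JNK cascade, rose in PdB (1.57 ± 0.065, adjusted p = 1.6e-13), with 78.8 ± 4.8 CPM in recovery, 127 ± 5.4 CPM in PdB and 42.9 ± 3.2 CPM in DMSO (SD, n = 3 each). MAP3K5 (ASK1), another activator of JNK and p38, fell the most in PdB, to 1.81 ± 0.19 CPM, against 11.3 ± 0.43 CPM in DMSO (-2.63 ± 0.14, adjusted p = 4.8e-12). MAP2K2, which activates ERK, fell to 55.0 ± 2.8 CPM in recovery, against 153 ± 4.1 CPM in PdB (-1.47 ± 0.052, adjusted p = 3.5e-14). MAP2K6, low throughout, fell the most in recovery against DMSO (-2.50 ± 0.6, adjusted p = 0.0014).

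Among the 6 genes for SRF and its cofactors, 3 rose and 2 fell in PdB against DMSO (median 0.037, beside -0.11 over all genes, of which 32.0% rose and 38.2% fell). In recovery against DMSO 2 rose and 3 fell (median -0.099, beside 0.026 over all genes, of which 30.7% rose and 30.5% fell). In recovery against PdB 1 rose and 3 fell (median -0.12, beside 0.062 over all genes, of which 34.6% rose and 31.5% fell). With library totals the first of these turned to 2 up and 3 down (median -0.16) and the last to 3 up and 2 down (median 0.15), and with upper-quartile factors 1 gene fell in PdB. SRF, which binds the serum response element of FOS, had 203 ± 6.2 CPM in recovery, 224 ± 11 CPM in PdB and 153 ± 5.0 CPM in DMSO (SD, n = 3 each), a rise of 0.55 ± 0.05 in PdB (adjusted p = 1.3e-08) and 0.41 ± 0.05 in recovery (adjusted p = 9.7e-07) over DMSO. ELK1, an ETS partner of SRF, rose in PdB (1.18 ± 0.05, adjusted p = 2.4e-13). MRTFB, an actin-regulated coactivator of SRF, fell in PdB (-2.50 ± 0.12, adjusted p = 1.2e-12) and in recovery (-2.44 ± 0.12, adjusted p = 3.7e-12), to 5.12 ± 0.63 CPM in recovery and 4.92 ± 0.51 CPM in PdB, against 27.7 ± 2.0 CPM in DMSO. ELK4 was the member that rose in recovery against PdB (0.22 ± 0.055, adjusted p = 0.0015).

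The DUSP phosphatases and the SPRY and SPRED proteins switch MAP kinase signalling off and are themselves induced by it. Of 17 such genes, 14 rose and 2 fell in PdB against DMSO (median 1.4, beside -0.11 over all genes, 32.0% up and 38.2% down). In recovery against DMSO 12 rose and 3 fell (median 0.63, beside 0.026 over all genes, with 30.7% up and 30.5% down). In recovery against PdB 2 rose and 11 fell (median -0.72, beside 0.062 over all genes, with 34.6% up and 31.5% down). The last became 5 up and 9 down with library totals. DUSP1, which dephosphorylates JNK and p38, had 100.4 ± 3.0 CPM in recovery, 107 ± 14 CPM in PdB and 32.2 ± 1.8 CPM in DMSO (SD, n = 3 each), a rise over DMSO of 1.73 ± 0.079 in PdB (adjusted p = 6.5e-13) and 1.64 ± 0.079 in recovery (adjusted p = 3.6e-12). DUSP2 rose the most in PdB (2.91 ± 0.25, adjusted p = 7.4e-09). DUSP5, an ERK phosphatase, fell in PdB (-1.16 ± 0.055, adjusted p = 1e-12) and rose in recovery against DMSO (0.57 ± 0.053, adjusted p = 2.6e-08). SPRY1 fell the most in recovery against PdB (-1.76 ± 0.11, adjusted p = 8.8e-11), DUSP9 rose the most there (2.06 ± 0.46, adjusted p = 0.00061), and SPRED3 fell the most in recovery against DMSO (-0.98 ± 0.12, adjusted p = 1.3e-06).

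FOS and JUN messages are short-lived through AU-rich elements, and JUN protein is removed by ubiquitin ligases. Of 12 genes for these RNA-binding proteins and ligases, 6 rose and 5 fell in PdB against DMSO (median 0.16, beside -0.11 over all genes, with 32.0% up and 38.2% down). In recovery against DMSO 4 rose and 5 fell (median -0.16, beside 0.026 over all genes, with 30.7% up and 30.5% down), and in recovery against PdB 4 rose and 6 fell (median -0.10, beside 0.062 over all genes, with 34.6% up and 31.5% down). With library totals the first turned to 2 up and 5 down (median -0.033) and the last to 6 up and 5 down (median 0.17). Without DMSO library 1, DMSO library 2 or recovery library 1, 2 genes rose in recovery against DMSO in place of 4. COP1, a ligase that targets JUN, had 27.1 ± 1.8 CPM in recovery, 5.20 ± 1.2 CPM in PdB and 31.9 ± 1.4 CPM in DMSO (SD, n = 3 each). It fell in PdB (-2.61 ± 0.13, adjusted p = 1.6e-12) and was higher in recovery than in PdB (2.38 ± 0.13, adjusted p = 8.1e-12). FBXW7, which also recognises JUN, rose in PdB (1.14 ± 0.064, adjusted p = 1.4e-11) and in recovery (1.10 ± 0.064, adjusted p = 4.9e-11) over DMSO. ZFP36L2, which promotes decay of AU-rich messages, had 64.6 ± 0.99 CPM in recovery, 224 ± 11 CPM in PdB and 56.8 ± 6.8 CPM in DMSO, and DET1, a partner of COP1, fell the most in recovery against DMSO (-0.87 ± 0.19, adjusted p = 0.00047).

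Of 28 tested genes for other bZIP factors, the pool from which AP-1 proteins draw further partners, 20 rose and 4 fell in PdB against DMSO (median 0.58, beside -0.11 over all genes). Of all genes tested, 32.0% rose and 38.2% fell there. In recovery against DMSO 14 rose and 10 fell (median 0.63, beside 0.026 over all genes, with 30.7% up and 30.5% down). In recovery against PdB 7 rose and 18 fell (median -0.57, beside 0.062 over all genes, with 34.6% up and 31.5% down). ATF4, the effector of the integrated stress response that induces ATF3, had 309 ± 18 CPM in recovery, 375 ± 23 CPM in PdB and 186 ± 12 CPM in DMSO (SD, n = 3 each). It was higher than in DMSO in PdB (1.01 ± 0.059, adjusted p = 2.1e-11) and in recovery (0.73 ± 0.059, adjusted p = 3.4e-09) and lower in recovery than in PdB (-0.28 ± 0.058, adjusted p = 0.00039, lost with library totals at -0.0075 and adjusted p = 0.91). DDIT3 (CHOP), a further stress factor of that pathway, had 22.2 ± 0.97 CPM in recovery, 57.1 ± 3.3 CPM in PdB and 11.5 ± 1.1 CPM in DMSO, 1.36 lower in recovery than in PdB on the log2 scale (-1.36 ± 0.08, adjusted p = 3e-11), where ATF3 was higher.

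CEBPD, a C/EBP factor of acute responses, rose the most among other bZIP genes in PdB (3.74 ± 0.18, adjusted p = 1.5e-12) and fell the most in recovery against PdB (-2.62 ± 0.17, adjusted p = 1.1e-10). BATF, which competes with FOS for JUN, rose in recovery against DMSO (1.77 ± 0.22, adjusted p = 1.4e-06), with 5.06 ± 0.90 CPM in recovery, 1.97 ± 0.11 CPM in PdB and 1.49 ± 0.34 CPM in DMSO (SD, n = 3 each). Its relative BATF2 had 67, 55 and 58 reads in recovery, 1, 0 and 2 in PdB and 29, 33 and 34 in DMSO libraries. It fell in PdB (adjusted p = 2.1e-05) and was higher in recovery than in PdB (adjusted p = 1.9e-06). NFE2L3, a cap'n'collar factor, was lower in recovery than in DMSO (-0.88 ± 0.05, adjusted p = 2.9e-11).

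Outside the AP-1 family, 27 further immediate early genes were tested. Of these, 20 rose and 4 fell in PdB against DMSO (median 1.4, beside -0.11 over all genes, 32.0% up and 38.2% down). In recovery against DMSO 19 rose and 3 fell (median 1.1, beside 0.026 over all genes, with 30.7% up and 30.5% down). In recovery against PdB 6 rose and 12 fell (median -0.52, beside 0.062 over all genes, with 34.6% up and 31.5% down). With library totals 10 rose and 12 fell in this last comparison. EGR1, a zinc finger factor induced through the same serum response elements, had 51.5 ± 2.6 CPM in recovery, 93.0 ± 1.5 CPM in PdB and 16.3 ± 1.6 CPM in DMSO (SD, n = 3 each), a rise over DMSO of 2.52 ± 0.073 in PdB (adjusted p = 1.5e-15) and 1.66 ± 0.072 in recovery (adjusted p = 1e-12). NR4A2, an orphan nuclear receptor, rose the most in PdB (4.79 ± 0.2, adjusted p = 1.7e-13), and NR4A3 the most in recovery against DMSO (2.93 ± 0.27, adjusted p = 2.6e-08). MYC rose in PdB (1.43 ± 0.052, adjusted p = 2.4e-14), with 195 ± 14 CPM in recovery, 492 ± 10.1 CPM in PdB and 182 ± 4.6 CPM in DMSO, and its change in recovery against DMSO did not pass (0.095 ± 0.051, adjusted p = 0.12) except under 5 alternatives such as library totals (0.17, adjusted p = 0.008). KLF2 fell the most in PdB (-2.48 ± 0.093, adjusted p = 4e-14), PHLDA1 fell the most in recovery against DMSO (-1.12 ± 0.053, adjusted p = 2.9e-12), and HES1, a Notch target, rose the most in recovery against PdB (1.99 ± 0.14, adjusted p = 2.8e-10).

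The last list holds 36 genes that textbooks name as AP-1 targets, of which 32 were tested. In PdB against DMSO 11 rose and 15 fell (median -0.053, beside -0.11 over all genes, with 32.0% up and 38.2% down). The median of the targets turned sign there with DESeq2 size factors (0.043) and upper-quartile factors (0.097). In recovery against DMSO 8 rose and 19 fell (median -0.30, beside 0.026 over all genes, with 30.7% up and 30.5% down). In recovery against PdB 11 rose and 14 fell (median -0.021, beside 0.062 over all genes, with 34.6% up and 31.5% down). The last turned to 14 up and 10 down with library totals. PLAU, the urokinase protease gene of invading cells, had 90.2 ± 13 CPM in recovery, 52.8 ± 7.4 CPM in PdB and 372 ± 34 CPM in DMSO (SD, n = 3 each), and fell in PdB (-2.82 ± 0.1, adjusted p = 3e-14) and in recovery (-2.04 ± 0.099, adjusted p = 4.1e-12) against DMSO. ITGA2, the collagen receptor subunit, fell the most in PdB (-3.49 ± 0.15, adjusted p = 2.9e-13), to 11.9 ± 3.1 CPM, against 133 ± 15 CPM in DMSO.

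The interstitial collagenase gene MMP1 had 15.3 ± 1.5 CPM in recovery, 5.17 ± 1.6 CPM in PdB and 4.31 ± 0.44 CPM in DMSO (SD, n = 3 each), a rise of 1.83 ± 0.18 in recovery against DMSO (adjusted p = 4.4e-08), while its change in PdB did not pass (0.26 ± 0.18, adjusted p = 0.2) unless PdB library 2 was left out (0.47, adjusted p = 0.012). The cytokine genes IL6 and CXCL8 rose in PdB (2.37 ± 0.18 and 1.80 ± 0.19, adjusted p = 7.8e-10 and 9.1e-08) and in recovery (2.38 ± 0.18 and 1.75 ± 0.19, adjusted p = 1.3e-09 and 1.8e-07) over DMSO. The urokinase receptor gene PLAUR rose in recovery against DMSO (0.40 ± 0.069, adjusted p = 5.3e-05), with 101 ± 1.9 CPM in recovery, 72.6 ± 5.6 CPM in PdB and 76.3 ± 7.6 CPM in DMSO. CCND1, encoding cyclin D1, rose in PdB (0.19 ± 0.047, adjusted p = 0.0014, with the sign turned to -0.008 by library totals) and fell in recovery (-0.29 ± 0.047, adjusted p = 2.6e-05) against DMSO.

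SNAI2, an epithelial-mesenchymal transition factor, fell the most of the targets in recovery against PdB (-2.92 ± 0.081, adjusted p = 1.6e-15), with 12.4 ± 1.4 CPM in recovery, 93.9 ± 3.6 CPM in PdB and 23.8 ± 1.2 CPM in DMSO (SD, n = 3 each). The stromelysin gene MMP3 had 12, 14 and 14 reads in recovery, 0, 0 and 12 in PdB and none in DMSO libraries, at least 4.62-fold higher in recovery against a floor of 3 reads per DMSO library (adjusted p = 0.0062). In PdB its reads came from library 3 and the groups overlapped. The call there (adjusted p = 0.032) was lost without PdB library 3 (log2 change 0), without DMSO library 1, 2 or 3 (adjusted p = 0.077, 0.072 and 0.073) and with a replicate block (adjusted p = 0.064).

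**Figure D4:**
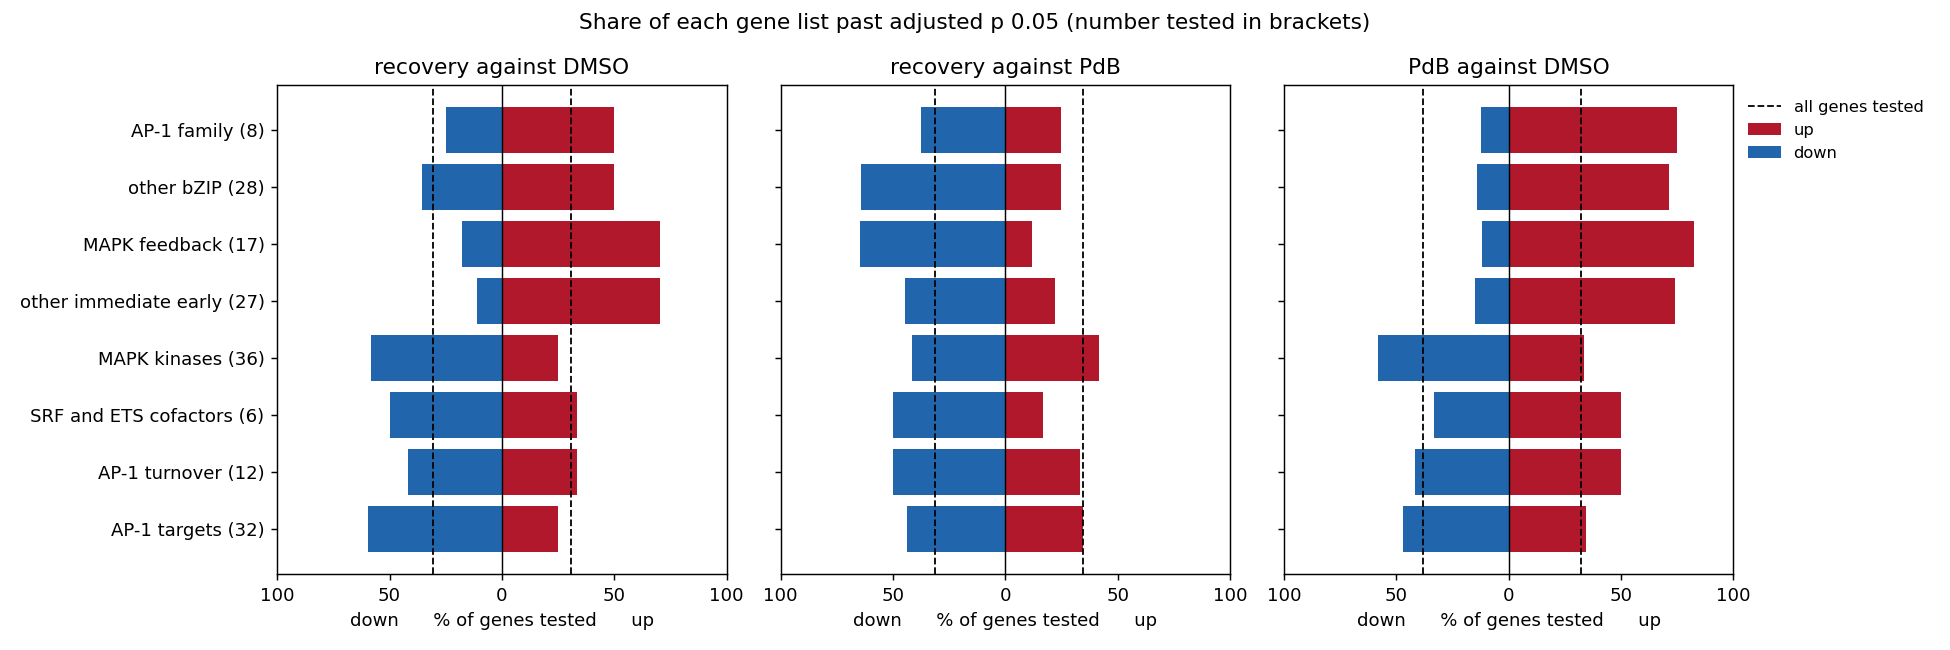
Percent of the tested genes of each list (number in brackets) past an adjusted p of 0.05, higher to the right and lower to the left, for each comparison, with the percent of all genes tested as dashed lines. In PdB against DMSO the bars of every list pass the right dashed line. Of these, the bars of MAPK kinases (12 of 36) and AP-1 targets (11 of 32) lie close to it. With library totals, 2 of 12 AP-1 turnover genes rose there in place of 6. The bars of MAPK kinases, AP-1 turnover (5 of 12, close to the line) and AP-1 targets pass the left one there. In recovery against DMSO the bars of every list except MAPK kinases and AP-1 targets pass the right line. Of these, the bars of SRF and ETS cofactors (2 of 6) and AP-1 turnover (4 of 12) lie close to it. Those of other bZIP, MAPK kinases, SRF and ETS cofactors, AP-1 turnover and AP-1 targets pass the left one there.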

How the data were processed

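Raw read counts per gene were deposited by the authors for 9 libraries of polyadenylated RNA. The submitters' processing notes name fastp 0.23.2, STAR 2.7.9a, Picard, featureCounts 2.0.3, DESeq2 1.30.0 and the hg38 genome; the sources used here give neither strand setting nor annotation release. Symbols were found for 60463 of 60708 gene rows, and exon lengths came from GENCODE 29, to which 58440 rows matched. Groups follow the labels. Counts were fitted together for all 9 libraries in edgeR 4.0.16 (R 4.3.3) with filterByExpr, TMM scaling and quasi-likelihood tests. CPM are TMM-scaled. Subunit shares used CPM per kb of merged exons and two-sided exact permutation tests. DESeq2 1.42.0, other scalings, filters and left-out libraries were alternatives. The 8 genes and all gene lists were chosen with earlier results of these data known. Named genes were all 8 members, the largest called rise and fall of each list and comparison, the 3 nearest profiles of each member, of which the closest are printed, and ATF4, DDIT3, EGR1, MYC, DUSP1, SRF, MMP1, PLAU, PLAUR, IL6, CXCL8 and CCND1. Genes that this rule names in the marker lists enter only the sums of those lists, and 1 that it names in the MAP kinase list is not reported here. Chi-square tests found no library pair within sampling noise.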

Additional observations from a re-analysis of the deposited data

How the results depend on the processing

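Of the 24 tests of the 8 genes, 17 kept their call and sign under all 18 alternatives, and the others are JUN and JUND in PdB against DMSO, FOSL2 in recovery against DMSO, and FOS, FOSB, JUNB and JUND in recovery against PdB. Library totals moved recovery against PdB most: 8 genes were called in place of 5, and over all genes 8862 rose and 4876 fell, against 7204 and 6563 with TMM. Without 1 library, 7 of the 8 genes were called in PdB against DMSO, 6 in recovery against DMSO and 4 to 6 in recovery against PdB, where FOSB entered and JUNB dropped out in some of these fits. At a threshold of 0.01, 6 other bZIP genes fell in recovery against DMSO in place of 10, and 2 turnover genes rose there in place of 4. Signs turned, with log2 change, for JUN (-0.12) and CCND1 (-0.008) in PdB against DMSO with library totals; for PLAUR there with DESeq2 size factors (0.024), DESeq2 (0.024), upper-quartile factors (0.079), a mean of at least 50 counts (0.051) and only the 6 libraries compared (0.0061); and for FOSL2 in recovery against DMSO with upper-quartile factors (0.024) and library totals (0.019). In recovery against PdB they turned with library totals for CXCL8 (0.22), DUSP1 (0.18) and SRF (0.13), with a mean of at least 50 counts for FOS (-0.0079) and IL6 (-0.082), for IL6 with DESeq2 size factors (-0.05), DESeq2 (-0.05), upper-quartile factors (-0.072) and the replicate block (-0.0085), and without 1 library for IL6 (range -0.059 to 0.065), CXCL8 (-0.20 to 0.12) and FOS (-0.012 to 0.18). The cause was not tested. From unscaled counts the share of FOSL1 in the FOS group differed by 1.64 points in PdB against DMSO, -4.36 in recovery against DMSO and -6.00 in recovery against PdB, where length scaling, the step left out, gave 0.719, -2.28 and -3.00. Libraries with the same number deviated together at most weakly (r from -0.00323 to 0.048). Even so, 5 of 9 libraries correlated best with their own number in both other groups, a hint of pairing from the data. With the replicate number as a block, 7, 6 and 6 of the 8 genes were called and 6638 genes rose and 7990 fell in PdB against DMSO; FOSB passed in recovery against PdB (0.46, adjusted p = 0.026, edgeR). The counts carry no spike-in control, so all levels are relative to the TMM-scaled size of each library. The low reads of MMP3 and BATF2 limit the precision of these genes.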

Other observations

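Further bZIP genes, chosen here after their values were seen, had levels that set the AP-1 genes in context. The small MAF gene MAFF had 98.5 ± 6.4 CPM in recovery, 217 ± 12 CPM in PdB and 42.8 ± 3.1 CPM in DMSO (SD, n = 3 each), while MAFK, of the same family, had 123 ± 4.2 CPM in recovery, 74.8 ± 4.8 CPM in PdB and 44.7 ± 1.5 CPM in DMSO. NFE2L2, which encodes the oxidative stress factor NRF2 and pairs with small MAF proteins, had 204 ± 3.7 CPM in recovery, 412 ± 12 CPM in PdB and 104 ± 4.9 CPM in DMSO. Of genes known to respond to both NRF2 and AP-1, HMOX1 had 8.75 ± 0.27 CPM in recovery, 21.9 ± 1.3 CPM in PdB and 7.53 ± 0.95 CPM in DMSO, and GCLC had 58.5 ± 2.4, 31.2 ± 1.6 and 24.2 ± 0.82 CPM in recovery, PdB and DMSO.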
